A study of Mus musculus with 10 samples.

Results

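The 10 anterior Hox genes Hoxa2, Hoxb2, Hoxa3, Hoxb3, Hoxd3, Hoxa4, Hoxb4, Hoxc4, Hoxa5 and Hoxb5 were followed in single inspiratory neurons of the preBötzinger complex (preBötC), the brainstem site that generates the rhythm of breathing in. They were chosen by name, as the Hox genes that mark rhombomere and cervical position, and they are 10 of the 39 protein-coding mouse Hox genes and 10 of the 55367 genes listed in the files. Each of the 10 libraries holds the cytoplasm of 1 neuron, drawn into a patch pipette in a brainstem slice after its firing had been recorded. The recordings placed 4 neurons as Type-1 (samples 4, 5, 6 and 7), 1 as Type-2 (sample 1) and 5 as Unknown (samples 2, 3, 8, 9 and 10). Type-1 neurons are the putative rhythm generators, Type-2 the putative pattern generators, and Unknown neurons could be placed in neither class.

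Hox genes encode homeodomain transcription factors and lie in 4 clusters, a to d, where the order of the genes along the chromosome matches the order of their expression domains from head to tail. Genes with the same number in different clusters are paralogs, copies of one ancestral gene. Groups with low numbers set the identity of the rhombomeres, the segments of the embryonic hindbrain, and the following groups that of the caudal hindbrain and the neck part of the spinal cord. Once set in the embryo, this pattern is kept in neurons by Polycomb and trithorax proteins, and Hox proteins bind DNA together with Pbx and Meis cofactors.

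By the labels, samples 1, 5, 6 and 7 were Dbx1-derived neurons of Dbx1;Ai148 mice, in which Cre under the Dbx1 promoter switches on the calcium indicator GCaMP6f from the Ai148 allele, on a C57Bl/6J or mixed C57Bl/6J and CD-1 background. This reporter marks neurons whose precursors expressed Dbx1, and the neurons were picked by their rhythmic fluorescence. Samples 2, 3, 4, 8, 9 and 10 came from CD-1 mice, without these alleles, and were picked for activity in phase with the hypoglossal motor output. The neurons were recorded at P0 (samples 1, 3, 5 and 8), P1 (sample 10), P2 (samples 2 and 9) and P3 (samples 4, 6 and 7), without any drug or other treatment that differed between groups. Figure legends of the study give another assignment to the mouse lines, and the sample labels were used here. Since the labels name no animal and each neuron is 1 library, groups were described and not tested, and no p-value is given.

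In the GRCm38 build the members lie in all 4 clusters. Hoxa2 (chr6:52162417-52164831), Hoxa3 (chr6:52169062-52213336), Hoxa4 (chr6:52189671-52191753) and Hoxa5 (chr6:52201754-52204587) are on the minus strand of chromosome 6. Hoxb5 (chr11:96303336-96306121), Hoxb4 (chr11:96318267-96321638), Hoxb3 (chr11:96323326-96347930) and Hoxb2 (chr11:96350525-96354012) are on the plus strand of chromosome 11, as are Hoxc4 on chromosome 15 (chr15:103018934-103036852) and Hoxd3 on chromosome 2 (chr2:74711927-74748442). The span of Hoxa3 contains those of Hoxa4 and Hoxa5, although the exons of these genes share no base.

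The promoter sequences show what lies directly before the start of a member from paralog groups 2, 4 and 5. Of the 10 members, 6 had a RefSeq promoter window (GRCm38.p6), and the 250 bases before the start are printed for the 3 of those 6 windows that held no exon base of any gene, Hoxa2 (chr6:52164832-52165081, minus strand), Hoxa5 (chr6:52204588-52204837, minus strand, inside the span of Hoxa3) and Hoxb4 (chr11:96318017-96318266, plus strand). Capitals mark matches, on either strand, to 4 motifs: TGATNNAT, a Pbx-Hox type site, CCAAT, the CCAAT box, AGGTCA, the core site of retinoic acid receptors, and TATAAA, the TATA box.
Hoxa2: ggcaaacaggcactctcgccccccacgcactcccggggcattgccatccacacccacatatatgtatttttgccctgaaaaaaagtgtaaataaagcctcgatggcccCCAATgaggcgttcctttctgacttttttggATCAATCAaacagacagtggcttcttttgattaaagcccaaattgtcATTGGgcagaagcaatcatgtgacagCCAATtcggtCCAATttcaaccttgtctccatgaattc
Hoxb4: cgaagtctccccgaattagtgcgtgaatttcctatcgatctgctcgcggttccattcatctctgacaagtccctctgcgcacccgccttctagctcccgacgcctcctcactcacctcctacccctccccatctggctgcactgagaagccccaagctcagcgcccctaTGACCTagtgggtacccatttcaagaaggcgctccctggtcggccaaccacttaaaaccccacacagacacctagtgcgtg
Hoxa5: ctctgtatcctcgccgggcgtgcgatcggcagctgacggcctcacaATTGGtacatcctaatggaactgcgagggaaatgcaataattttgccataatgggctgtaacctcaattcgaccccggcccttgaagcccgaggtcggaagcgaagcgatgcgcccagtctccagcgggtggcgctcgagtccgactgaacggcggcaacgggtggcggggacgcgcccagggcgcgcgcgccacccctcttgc

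Among the 6 windows, the Pbx-Hox type motif was found in 1 (Hoxa2), against 7.68% of all 32851 windows of this length. The CCAAT box was found in 3 (Hoxd3, Hoxa2 and Hoxa5), against 33.8%, and the retinoic acid receptor core site in 3 (Hoxd3, Hoxb4 and Hoxc4), against 14.0%. No TATA box stood in the 6 windows, against 12.4% of all. The median number of CpG dinucleotides was 13 in the 6 windows and 6 in all windows. These matches describe the letters and show no binding.

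The libraries held 21392146 to 36629393 fragments counted on genes. Levels are given as the authors' FPKM, fragments per kilobase of gene length and per 1000000 counted fragments, so that genes of different length can be compared, with fragment counts beside them. A gene without a fragment can still have up to 3 by chance, which is at most 0.0880 FPKM for any of the members in any library. Poisson intervals and these limits cover counting error only, because the reads carry no molecular identifiers. Of 8 neuron markers, 6 to 8 reached 1 FPKM in each library, with a mean level between 2.10 (sample 4) and 7.58 (sample 9) on the log2(FPKM + 1) scale. Markers of other cells were also present. All 8 microglia markers reached 1 FPKM in samples 2 and 4, where their summed level was 2039 and 15398 FPKM, against 0.685 to 492 in the other neurons. The mean log2(FPKM + 1) of 10 astrocyte markers ranged from 0.788 (sample 6) to 5.59 (sample 3), and 7 of 8 markers of cholinergic motoneurons reached 1 FPKM in sample 9. The part of these in the Hox levels was not tested.

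Each member was either clearly present in a neuron or nearly absent. Of the 100 values (10 genes in 10 neurons), 44 were 0, 18 were 1 to 3 fragments, none lay between 4 and 10, and 38 were 11 fragments or more, of which 37 were at least 30. The 18 low values held 33 fragments in all, and 16.4 were expected there from fragments of other libraries, at the rates seen for genes nearly private to 1 library (0 to 0.157% between 90 ordered pairs of libraries). In the 44 values of 0, 10.2 fragments were expected from that source and none was seen. The low values were picked for having fragments, so they alone do not give the share from other libraries. For the 38 high values, 27.6 of 23931 fragments were expected from that source. A member is therefore called detected in a neuron at 10 fragments or more, and a level of 1 FPKM is used as a second limit. The plot of fragments by gene shows the gap between both kinds of values.

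**Figure D1:**
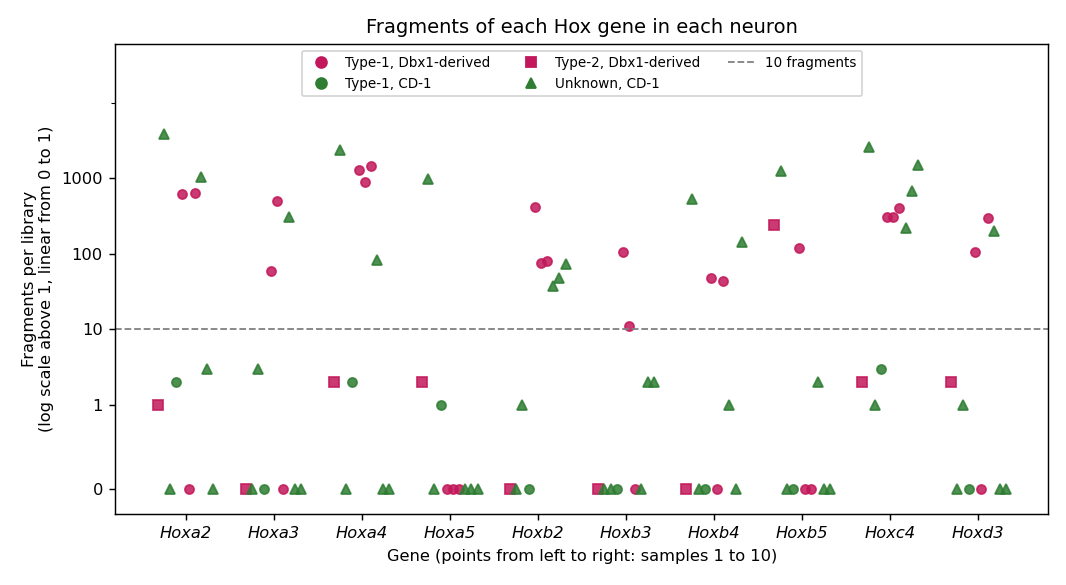
Fragments of each of the 10 Hox genes (x axis) in each neuron (y axis, log scale above 1 and linear from 0 to 1), with 1 point per neuron, its shape giving the type and its colour the mouse line. The dashed line is at 10 fragments, and no point lies between 3 and 11.

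At 1 FPKM, 9 of the 10 members were reached in at least 1 neuron, all but Hoxb3, against 57.9% of all protein-coding genes. Hoxa4 and Hoxc4 did so in 5 or more neurons, against 30.9% of protein-coding genes, and no member did so in all 10, against 4.68%. By mean level over the 10 neurons the order was Hoxa4, Hoxa2, Hoxc4, Hoxb5, Hoxa5, Hoxb4, Hoxb2, Hoxd3, Hoxa3 and Hoxb3. Neighbours in this order differed by less than their spread over neurons, and on the log2(FPKM + 1) scale Hoxc4 (2.22 ± 1.77, mean ± SD, n = 10 neurons) stood above Hoxa4 (2.10 ± 2.42) and Hoxa2 (1.80 ± 2.36). Sample 2 set much of the order. Without it, Hoxc4 passed Hoxa2, Hoxb2 moved from the seventh place to the fourth, and Hoxa5 moved from the fifth to the last.

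**Figure D2:**
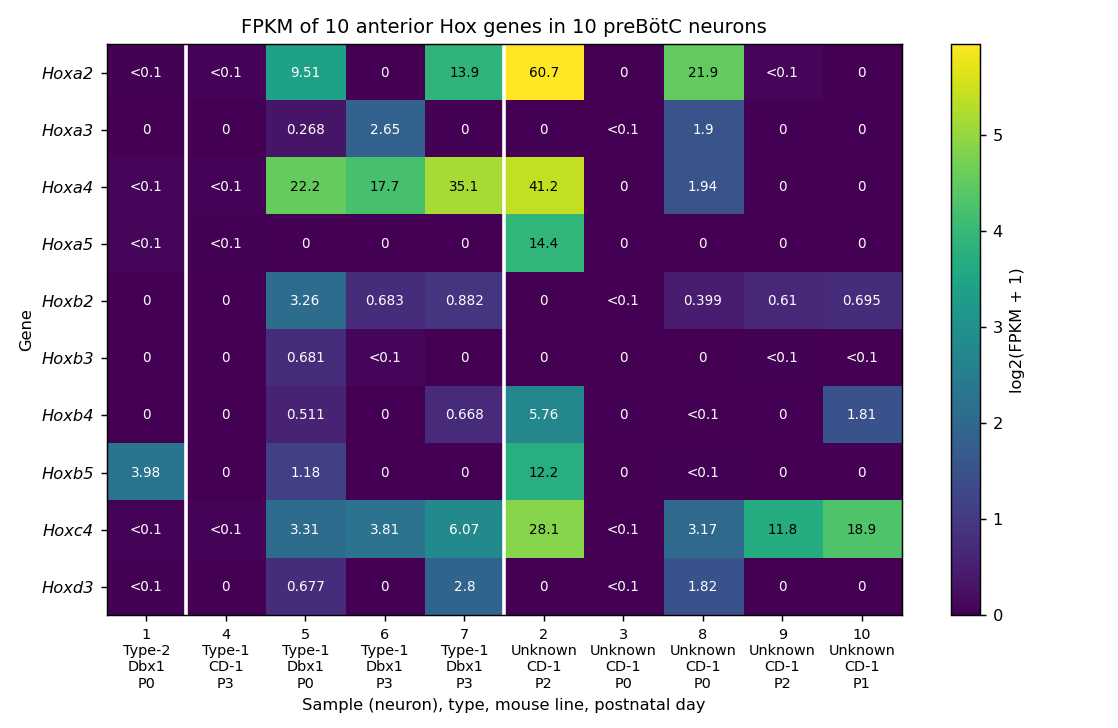
FPKM of the 10 Hox genes (rows) in the 10 neurons (columns, grouped by type, with mouse line and postnatal day), coloured by log2(FPKM + 1) and with the FPKM printed in each cell. Hoxc4 is at 3.17 FPKM or more in 7 neurons, while samples 3 and 4 have no member at 0.1 FPKM.

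Hoxa2 and Hoxb2, the paralogs of group 2, are the most anterior members. Hoxa2, which patterns the second branchial arch and the rhombomeres around it, was at 60.7 FPKM in sample 2, 21.9 in sample 8, 13.9 in sample 7 and 9.51 in sample 5. It was listed at 0 in samples 3, 6 and 10 and at 0.0263, 0.0383 and 0.0766 FPKM in samples 1, 4 and 9, where it had 1, 2 and 3 fragments. So 4 neurons carried Hoxa2 at high levels and the other 6 did not, with a 6.39-fold range among the carriers and a mean of 10.6 ± 19.2 FPKM over all 10. The 3909 fragments of sample 2 have a 95% Poisson interval of 3787 to 4034, far narrower than the spread between neurons.

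Hoxb2, which acts beside Hoxa2 in the hindbrain and is needed for facial motoneurons, was spread more widely but was low. It was at 3.26 FPKM (417 fragments) in sample 5. In samples 6, 7, 8, 9 and 10 it was at 0.683, 0.882, 0.399, 0.610 and 0.695 FPKM, from 37 to 79 fragments. It was listed at 0 in samples 1, 2 and 4 and had 1 fragment in sample 3. All 6 neurons with Hoxb2 were thus among samples 5 to 10, and sample 2, which had the most Hoxa2, had no Hoxb2 fragment. The antisense gene Hoxb3os overlaps 27.3% of the exon bases of Hoxb2, and without strand information fragments from these bases cannot be assigned to either. If fragments in shared bases were not counted, Hoxb2 would reach 1 FPKM in 2 neurons in place of 1.

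The group 3 genes Hoxa3, Hoxb3 and Hoxd3 act in the caudal rhombomeres and, for Hoxa3, in the third pharyngeal arch. Their summed level averaged 1.10 ± 1.48 FPKM over the 10 neurons, against 3.18 ± 8.31 for group 5, but 1.22 ± 1.52 against 0.583 ± 1.35 without sample 2. It was above that of group 5 in 7 of 10 neurons. Samples 3, 9 and 10 are among these, at only 0.0237, 0.0213 and 0.0154 FPKM, and neither group had a detected gene there. Hoxa3 was at 2.65 FPKM (501 fragments) in sample 6, 1.90 (303) in sample 8 and 0.268 (59) in sample 5, had 3 fragments in sample 3 and was listed at 0 in the other 6. Its mean was 0.483 ± 0.963 FPKM, and 3 of 10 neurons carried it.

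Hoxd3 was also detected in 3 neurons, at 2.80 FPKM (301 fragments) in sample 7, 1.82 (203) in sample 8 and 0.677 (104) in sample 5. It had 2 fragments in sample 1, 1 in sample 3 and none in the other 5. Samples 5 and 8 held both Hoxa3 and Hoxd3, whereas sample 6 held Hoxa3 alone and sample 7 held Hoxd3 alone. Of the exon bases of Hoxd3, 62.8% lie in exons of other genes, mostly Gm28230, which had at most 39 fragments. If fragments in shared bases were not counted, the highest level of Hoxd3 would be 7.53 FPKM and not 2.80, and 3 neurons would reach 1 FPKM and not 2. Hoxd3 also shares 339 sequences of 50 bases with its neighbour Hoxd4, which was at 0 in every neuron.

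Hoxb3 was the weakest member. It had 106 fragments (0.681 FPKM) in sample 5 and 11 (0.0822 FPKM) in sample 6, with intervals of 86.8 to 128 and 5.49 to 19.7 fragments. Samples 9 and 10 had 2 fragments each, and the other 6 neurons none. Hoxb3os overlaps 52.9% of its exon bases. If fragments in shared bases were not counted, the highest level of Hoxb3 would be 1.45 FPKM. Hoxb3os itself had 192 fragments (1.47 FPKM) in sample 3, 58 in sample 8 and 24 in sample 6, and 0 in sample 5. Sample 6 thus had both genes, and sample 5 had Hoxb3 without Hoxb3os.

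The group 4 genes Hoxa4, Hoxb4 and Hoxc4 have their anterior borders in the most caudal hindbrain or near its junction with the spinal cord, and they gave the highest levels together. Hoxc4 was the most widely detected member. It was at 28.1 FPKM in sample 2, 18.9 in sample 10, 11.8 in sample 9, 6.07 in sample 7, 3.81 in sample 6, 3.31 in sample 5 and 3.17 in sample 8. Samples 1, 3 and 4 had 2, 1 and 3 fragments of it, at most 0.0397 FPKM. The carriers spanned an 8.87-fold range, and the mean was 7.52 ± 9.38 FPKM. No other gene's exon overlaps Hoxc4. Its 669 fragments in sample 9 (interval 619 to 722) are therefore free of that doubt.

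Hoxa4 was at 41.2 FPKM in sample 2, 35.1 in sample 7, 22.2 in sample 5, 17.7 in sample 6 and 1.94 in sample 8. It had 2 fragments each in samples 1 and 4 and none in samples 3, 9 and 10. These 5 carriers were also the only neurons in which Slc17a6, the vesicular glutamate transporter of brainstem glutamatergic neurons, was at 1 FPKM or more. Slc17a6 stood at 101, 158, 156 and 230 FPKM in samples 5, 6, 7 and 8 and at 1.85 in sample 2, against at most 0.495 in the other 5. This match was noticed after the values were seen, so the share given next is a description and no test of it. The match also depends on the limit of 1 FPKM. Just above 1.85 FPKM sample 2 would leave the Slc17a6 set, and just above 1.94 sample 8 would leave the Hoxa4 set. The same set of neurons at 1 FPKM was found for 0.112% of the 12465 protein-coding genes at that level in some neuron, a set that holds Hoxa4 and Slc17a6. The levels did not run in parallel, since sample 2 had the most Hoxa4 and the least Slc17a6 of the 5. Markers of inhibitory neurons were present in some carriers, with Slc32a1 at 5.95 FPKM in sample 2, Gad1 at 8.28 in sample 8 and Gad2 at 5.14 in sample 7. Samples 5 and 6 had none of the 4 inhibitory markers at 1 FPKM. The summed level of these 4 was at most 8.31 FPKM in the carriers. It was higher in samples 1, 3 and 10, without detected Hoxa4, at 261, 60.2 and 135 FPKM. Samples 4 and 9, also without it, were at 2.56 and 0.0419 FPKM. The other vesicular glutamate transporters, Slc17a7 and Slc17a8, had no fragment in any neuron.

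Hoxb4 was at 5.76 FPKM (536 fragments) in sample 2, 1.81 (142) in sample 10, 0.668 (44) in sample 7 and 0.511 (48) in sample 5. It had 1 fragment in sample 8 and none in samples 1, 3, 4, 6 and 9. All 4 neurons with Hoxb4 also carried Hoxc4, its paralog, but 3 of the 7 neurons with Hoxc4 had no or 1 Hoxb4 fragment. The mean level of Hoxb4 was 0.877 ± 1.81 FPKM.

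Hoxa5 and Hoxb5, of group 5, are the most posterior members and act at neck levels of the spinal cord, and Hoxa5 also in the phrenic motoneurons that drive the diaphragm. Hoxa5 was detected in sample 2 alone, at 14.4 FPKM (980 fragments, interval 920 to 1043). Samples 1 and 4 had 2 and 1 fragments, and the other 7 neurons none. Hoxb5 was at 12.2 FPKM (1228 fragments) in sample 2, 3.98 (237) in sample 1 and 1.18 (120) in sample 5, with 2 fragments in sample 8 and none in the other 6. Sample 1, the Type-2 neuron, thus had Hoxb5 as its one detected member, and that gene made up 95.4% of its summed Hox level. Except for samples 1, 2 and 5, no neuron had a detected group 5 gene.

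The other 29 Hox genes were nearly silent, as the map of the 4 clusters shows. Of these, 25 had no fragment in any neuron, against 34136 of all 55367 listed genes. In every neuron 27 of the 29 stayed under 10 fragments, against 37408 of the 55367. The exceptions were Hoxc5, a group 5 paralog next to Hoxc4, with 2395 fragments (21.4 FPKM) in sample 2 and at most 4 elsewhere, and Hoxd13, the last gene of the d cluster and a limb and tail gene, with 452 fragments (5.78 FPKM) in sample 6 and at most 1 elsewhere. With Hoxc5, sample 2 held a detected gene of all 3 clusters that have a group 5 member. At the other end of the neural axis, 11 transcription factors of forebrain and midbrain were all below 1 FPKM in every neuron. Their highest value was 0.145 FPKM, while 57.9% of protein-coding genes reached 1 FPKM in at least 1 neuron. No fragment was found for 7 of the 11, close to the share among all listed genes. By the limit of 10 fragments 2 were detected, Otx2 (22 fragments) and Fezf2 (16 fragments), both in sample 2.

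**Figure D3:**
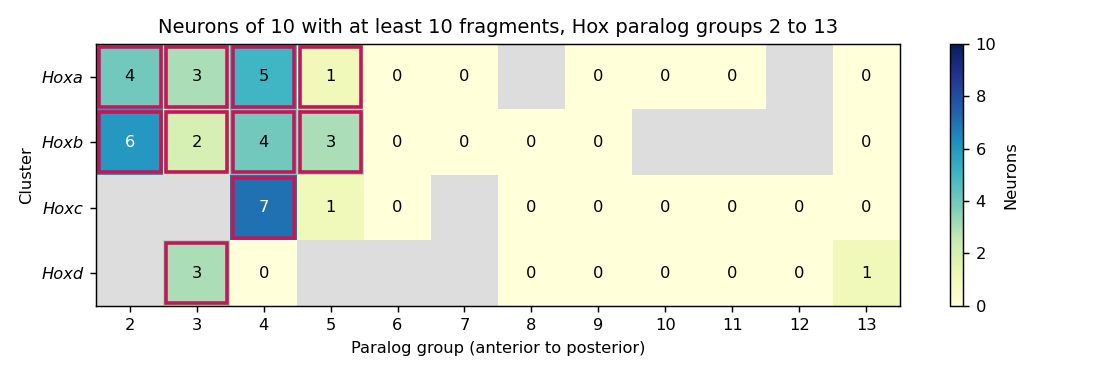
Number of neurons, of 10, with at least 10 fragments of each Hox gene of paralog groups 2 to 13, by cluster (rows) and paralog group (columns, from anterior to posterior), with grey where no gene exists and a red frame around the 10 members. Detection runs from group 2 to group 5, with Hoxc5 in 1 neuron and Hoxd13 in 1 neuron as the other counts above 0.

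Among 14 noncoding genes of the clusters that were measured, of 19 listed, 3 had 10 fragments or more in some neuron. The other 11 had none in any, against 34136 of all 55367 listed genes. Hotairm1, transcribed from the anterior end of the a cluster, reached 3.35 FPKM in sample 3, 2.97 in sample 8, 2.66 in sample 7 and 1.05 in sample 2. Haglr, from the d cluster, reached 4.35 FPKM in sample 6, 1.20 in sample 7 and 1.05 in sample 8. Sample 3, which had no detected member of the protein-coding set, therefore had the highest Hotairm1 and Hoxb3os values.

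The summed level of the 10 members differed widely between neurons, from 0.0454 FPKM in sample 3 and 0.139 in sample 4 to 162 in sample 2. Sample 1 was at 4.17, and samples 5 to 10 were at 41.6, 24.9, 59.4, 31.2, 12.5 and 21.4 FPKM. The mean over the 10 was 35.8 ± 48.4 FPKM, and 21.7 ± 20.1 without sample 2. Samples 1 to 4, which the study singled out on their expression values, held both extremes, and samples 5 to 10 alone had a mean of 31.8 ± 16.7.

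The number of members at 1 FPKM or more was 1, 6, 0, 0, 5, 3, 4, 5, 1 and 2 in samples 1 to 10, a mean of 2.7 ± 2.21. By detection at 10 fragments it was 1, 6, 0, 0, 9, 5, 6, 6, 2 and 3. All 8 neurons with a detected member had a different set, and sample 5 had every member but Hoxa5. Samples 3 and 4, without a detected member, had 31150630 and 29435915 fragments, within the range of the other libraries. They had 5055 and 6795 genes at 1 FPKM, against 5065 in sample 1, 5623 in sample 2, 6632 in sample 9 and 8720 to 9307 in the other 5. The cDNA concentration before sequencing was lowest in samples 1 to 4, by the study's methods, and the part of these measures in the Hox levels was not tested. In sample 4 the microglia markers had the highest level of all neurons (9.89 on the log2 scale) and the neuron markers the lowest (2.10). In sample 3 the neuron markers were at 6.38 and the astrocyte markers at 5.59.

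**Figure D4:**
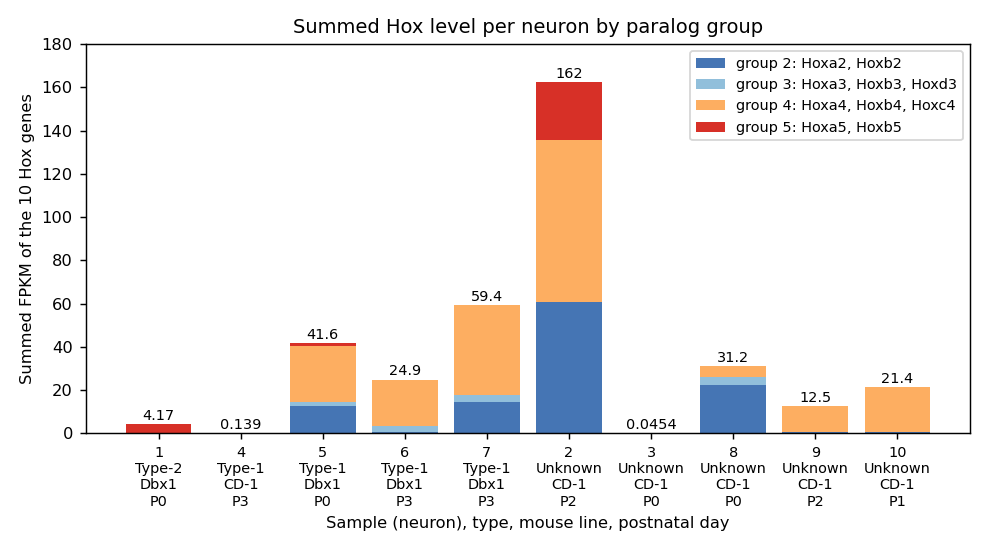
Summed FPKM of the 10 Hox genes in each neuron, stacked by paralog group, with neurons grouped by type and the total above each bar. Sample 2 stands at 162 FPKM, and group 4 fills most of the bars of samples 5, 6, 7, 9 and 10.

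Neurons also differed in which group led. Group 4 made up 94.3% and 96.7% of the summed level in samples 9 and 10, 86.3% in sample 6, 70.5% in sample 7, 62.6% in sample 5 and 46.2% in sample 2. In sample 8 group 2 led with 71.6%, and group 4 made up 16.4%. In sample 1 group 5 made up 96.6%. By cluster, a cluster genes held 71.7 to 82.6% of the summed level in samples 2, 5, 6, 7 and 8 and at most 0.612% in samples 9 and 10, where Hoxc4 held 94.3 and 88.2%. For 6 of the 9 members that reached 1 FPKM, 1 neuron held more than 50% of the gene's summed level, against 40.7% of protein-coding genes. These were Hoxa2, Hoxa5, Hoxb4 and Hoxb5 in sample 2, Hoxa3 in sample 6 and Hoxd3 in sample 7.

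Whether Hox levels followed the lineage reporter was examined with the 4 Dbx1-derived and the 6 CD-1 neurons. The summed level was 32.5 ± 23.6 FPKM in the former (4.17, 41.6, 24.9 and 59.4) and 37.9 ± 62.1 in the latter (0.0454 to 162, median 17.0). The ranges overlapped throughout. On the log2(summed FPKM + 1) scale the mean was 4.60 ± 1.57 against 3.48 ± 2.86, a difference of 1.12 with a pooled SD of 2.46. It was 0.44 without sample 3, 0.47 without sample 4, 0.68 without sample 7, 1.87 without sample 1 and 1.90 without sample 2. No member of the 9 had all Dbx1-derived neurons above all CD-1 neurons, against 1.23% of protein-coding genes, or all below, against 0.521%. The mean FPKM was higher in the Dbx1-derived neurons for 4 of 9 (Hoxa3, Hoxa4, Hoxb2 and Hoxd3), against 51.2%. Hoxa4 was detected in 3 of 4 Dbx1-derived and 2 of 6 CD-1 neurons, Hoxc4 in 3 of 4 and 4 of 6, and Hoxa2 in 2 of 4 and 2 of 6. Litter, background strain and the way a neuron was picked cannot be told apart from the line.

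The firing class was examined with the 4 Type-1 and 5 Unknown neurons, since Type-2 is a single neuron. The summed level was 31.5 ± 25.2 FPKM in Type-1 (0.139, 41.6, 24.9 and 59.4) and 45.5 ± 66.3 in Unknown neurons (162, 0.0454, 31.2, 12.5 and 21.4). The groups overlapped, and the difference on the log2 scale was -0.080 with a pooled SD of 2.64. It changed sign to 1.21 without sample 4, 0.72 without sample 2, 0.14 without sample 8 and 0.0085 without sample 10, and ran to -0.29, -0.53, -0.70, -0.17 and -1.10 without samples 6, 5, 7, 9 and 3. No member separated the classes in either direction, against 0.746% of protein-coding genes with Type-1 above and 0.369% with Type-1 below. The mean FPKM was higher in Type-1 for 4 of 9 members, Hoxa3, Hoxa4, Hoxb2 and Hoxd3, against 53.3%. Hoxa4 averaged 18.8 ± 14.5 FPKM in Type-1 and 8.62 ± 18.2 in Unknown neurons, where it was 0.484 ± 0.968 without sample 2, and Hoxc4 averaged 3.31 ± 2.49 and 12.4 ± 11.5. Of the 4 Type-1 neurons 3 were also Dbx1-derived, and all Unknown neurons were CD-1, so class and line cannot be told apart.

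By age, the summed level was 4.17, 0.0454, 41.6 and 31.2 FPKM at P0, 21.4 at P1, 162 and 12.5 at P2, and 0.139, 24.9 and 59.4 at P3. At P0 and at P3 a neuron with almost no Hox fragments stood beside neurons at 24.9 FPKM or more.

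Genes that act with Hox proteins were more widely present than the Hox genes. All 9 Pbx, Meis and Pknox cofactors reached 1 FPKM in at least 1 neuron, against 57.9% of protein-coding genes. In at least 5 neurons 7 of 9 did so, against 30.9%. Meis3 averaged 31.0 ± 39.2 FPKM and reached 1 FPKM in 9 neurons, with 132 in sample 1 and 0.111 in sample 3. Meis2 averaged 29.3 ± 28.8 FPKM, with 74.9 in sample 10. Pbx3 averaged 28.8 ± 58.5 FPKM, of which sample 10 had 180 and sample 7 had 81.6. Sample 3, without a detected Hox member, was also at 0.111 FPKM or less for Meis1, Meis2, Meis3, Pbx3 and Pbx4. Sample 4, likewise without a detected member, had 9.54 FPKM of Meis3 but 0.502 of Meis2, 0.595 of Pbx3, 0.0968 of Meis1 and no Pbx4.

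Of 17 genes of hindbrain patterning upstream of Hox expression, 8 reached 1 FPKM in at least 1 neuron, against 57.9% of protein-coding genes. In at least 5 neurons 1 did so, the retinoid receptor Rxrb, against 30.9%. Rara, a retinoic acid receptor, was at 4.67, 5.50 and 3.04 FPKM in samples 5, 7 and 8 and at most 0.0214 elsewhere. Gbx2, which sets the border between midbrain and hindbrain, was at 140 FPKM in sample 1, 41.4 in sample 2, 23.8 in sample 10 and 5.44 in sample 5. Egr2, which regulates rhombomere genes but is also expressed in myeloid cells, was at 18.2 FPKM in sample 4, where the microglia markers were highest. Of 11 Polycomb and trithorax genes, 10 reached 1 FPKM in at least 1 neuron, against the same 57.9%. In at least 5 neurons 3 did so, close to the share of 30.9% among protein-coding genes. Rnf2, a ubiquitin ligase of Polycomb complex 1, averaged 20.6 ± 18.3 FPKM, and Ezh1, a methyltransferase of Polycomb complex 2, 8.45 ± 7.56.

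Members were compared in pairs over the 10 neurons, each of which is its own library, on the log2(FPKM + 1) scale and as a description. Hoxb2 and Hoxc4 were detected together in 6 neurons, Hoxa4 and Hoxc4 in 5, and Hoxa2 and Hoxa4 in 4. Of the 45 pairs, 4 were never detected in the same neuron. All of them pair Hoxa5, detected in sample 2 alone, with a member missing from that neuron (Hoxa3, Hoxb2, Hoxb3 or Hoxd3). The median Pearson r was 0.170 for 12 pairs within a cluster, 0.318 for 8 pairs of paralogs and 0.224 for 25 pairs that shared neither. Without sample 2 these medians were 0.223, 0.206 and 0.0890, so their order rested on that neuron. Hoxb2 and Hoxb3 had r = 0.854 (Spearman 0.670) and both overlap Hoxb3os. Sample 5 was highest for both, with 417 and 106 fragments, and Hoxb3 had at most 11 elsewhere. Hoxb3os had 0 fragments in sample 5, and the part of the overlap in this r was not tested. Hoxa5 and Hoxb4 had r = 0.838, which was -0.301 without sample 2. Hoxb4 and Hoxc4 had r = 0.737, and 0.642 without that neuron.

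Genes with a like pattern were sought among the 10420 genes that reached 1 FPKM in no fewer than 3 neurons. The closest to the mean of the 10 members were Oscp1 (Pearson r = 0.952), Kcnab3 (0.941), Cmpk2 (0.937), Particl (0.935) and Rnaseh2b (0.933). The closest to Hoxa4 were Morn2 (0.971), Trappc9 (0.949) and Xkr4 (0.948), to Hoxa2 Prpf4 (0.985), Cmpk2 (0.979) and Itch (0.977), and to Hoxc4 Ptges2 (0.960), Ap3m1-ps (0.950) and Prdx2 (0.946). All of these but Prdx2 were highest in sample 2, as were these Hox genes, and with n = 10 neurons and this many genes screened, high values are found for many genes.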

How the data were processed

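Cytoplasm of 10 neurons was converted to cDNA with the SMART-Seq v4 kit and made into Nextera libraries, which do not mark strand, for paired-end sequencing. The authors checked reads with FastQC 0.11.8, aligned them to GRCm38 with STAR 2.7.7a and counted fragments per gene of Ensembl release 102 with featureCounts, and deposited raw counts. The authors also deposited gene lengths and FPKM, which equal the counts per kilobase and per 1000000 counted fragments. Options for fragments that match several genes or places are not given in the sources used here, so members with shared exon bases or sequences are uncertain.

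From these files, levels were taken as deposited and log2 values with a pseudocount of 1 FPKM. Group and replicate numbers came from the sample labels, with mouse line and age. No test was made, and each neuron's value or the mean ± SD of the neurons is given. Shares of all genes at a limit used the 21534 protein-coding symbols of GENCODE M21, which also gave positions and shared exon bases. For all members the M21 exon bases equal the deposited length. The members and all lists were chosen with earlier results of these data known, and the genes named are the members, genes of those lists and those most like the members. Some genes of the lists are not reported here. The match of Hoxa4 with Slc17a6 and the lengths over unshared bases were added after seeing the data.

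Fragments expected from other libraries were estimated from genes with 1000 counts or more in 1 library and no more than 2% of this number in each of the rest (47 to 188 genes per library). For each pair of libraries, the 5% of these genes with the highest ratio of counts were left out, and none at the low end. The method was tested on simulated data. Library totals ran from 21392146 to 36629393 fragments, and with 3 counts as the limit of a 0, intervals are 95% exact Poisson. Alternatives were TPM, low counts set to 0, subtraction of expected fragments, thinning, other limits and pseudocounts, and leaving neurons out. The work was done in Python 3.11.15 with SciPy 1.17.1, pandas 2.3.3 and NumPy 2.4.6, and figures were drawn with Matplotlib 3.10.9.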

Additional observations from a re-analysis of the deposited data

Results flagged for a closer look

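A neuron was marked when it lay far from the others of its class or line by Dixon's criterion at the 95% level, on the log2(FPKM + 1) scale, in groups of 4 to 6 neurons. Of 44 groups of values examined, 15 were marked, and chance marks about 1 in 20. Since a gene detected in 1 neuron of a group and absent from the rest always meets the criterion, most marks restate that a member was carried by 1 neuron.

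Sample 2 was marked among Unknown and among CD-1 neurons for Hoxa4 (5.40), Hoxa5 (3.94) and Hoxb5 (3.72). Sample 8 was marked in both of the same groups for Hoxa3 (1.53) and Hoxd3 (1.50). Sample 5 was marked among Type-1 and among Dbx1-derived neurons for Hoxb3 (0.749) and among Type-1 neurons for Hoxb5 (1.12). Hoxa5 was marked in sample 4 among Type-1 neurons (0.0259) and in sample 1 among Dbx1-derived neurons (0.0701), where it had 1 and 2 fragments, below the limit of 3 that a count of 0 allows.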

How the results depend on the processing

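No paired analysis was possible because the replicate numbers only follow the order of the samples, each neuron is 1 library and no result comes from a test. As TPM the mean summed level was 85.4, a move by more than its spread. TPM rescales every library to another unit than FPKM, so the size of this move is not a change on one scale. With a limit of 5 FPKM the mean number of members per neuron was 1.5, a change of over 1.5 times but within its spread. The difference between Type-1 and Unknown neurons, close to 0 in itself, changed sign as TPM (0.15) and with lengths over unshared bases (0.019, chosen after seeing the data). Leaving out each neuron gave -1.10 to 1.21 for that difference and 0.44 to 1.90 for Dbx1-derived minus CD-1 neurons. The other 42 values of these 4 results kept their sign and moved by less than their spread. For single members, 83 of the 90 values moved by less than their spread. Among these, the mean of Hoxa2 changed sign with a pseudocount of 0.1 FPKM (-0.085), and that of Hoxa5 was 0 without samples 1 to 4. The remaining 7 single-member values, all means with a pseudocount of 0.1 FPKM, shift by construction of the scale. The order of the members by mean was the same as TPM, after thinning and after subtraction of expected fragments. Depth limits calls under 3 fragments, and the cause of the missing Hox fragments in samples 3 and 4 was not tested.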
